A study of Arabidopsis thaliana with 30 samples.

Results

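Shoots of Arabidopsis thaliana Col-0 were profiled by RNA-seq as soil drought went on, and the comparison described here is 5 days after drought (DAD) against 3 DAD. It uses 12 of the 30 libraries: 6 at 5 DAD (3 from ethanol-pretreated and 3 from water-pretreated plants) and 6 at 3 DAD (again 3 and 3), all taken by their labels. Plants had grown for 10 days on MS medium and 5 days on granular soil at 22 °C with 16 h light and 8 h dark, then received 10 mM ethanol or water through the roots for 3 days, after which watering stopped in both arms. The same harvests were also made at 0, 1 and 7 DAD, which enter only the time courses below. No watered plants of the same age are among the 12 libraries, and the hour of harvest is not stated, so drought, plant age and the hour of harvest cannot be told apart in this comparison. The methods speak of biological replicates, but neither they nor the labels say what a replicate was (a plant, a pot or a pool), so the p-values measure the spread between these libraries.

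As background, drying soil raises the level of abscisic acid (ABA) in leaves. ABA binds PYR/PYL receptors, which then hold back the clade A protein phosphatases 2C (PP2Cs), and this frees SnRK2 kinases to activate ABF transcription factors and, through them, genes for dehydrins, proline synthesis and protective sugars. Leaf transcript levels also follow the circadian clock, in which CCA1 and LHY peak around dawn and repress evening genes such as TOC1, and the supply of sugar, whose shortage switches on the dark-inducible (DIN) genes.

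The 12 libraries held 6409081 to 13061181 counts each, 6409081 to 13061181 at 5 DAD and 7395891 to 9151636 at 3 DAD, and 18026 of the 27417 genes in the table passed the filter on low counts. Values per library are given below as CPM, counts per 1000000 of the library total after scaling by TMM factors, and changes as log2 of 5 DAD over 3 DAD from edgeR's quasi-likelihood test, with arm as a term, the standard error (SE) and the p-value adjusted over all tested genes (Benjamini-Hochberg); a gene was called at an adjusted p under 0.1. The first principal component (26.7% of the variance) placed the libraries at 15.8 to 53.3 at 5 DAD and at -39.6 to -25.3 at 3 DAD. The leaf and shoot markers (7 of 7 found in every library) summed to 41764 to 56513 CPM at 5 DAD and 60603 to 73372 CPM at 3 DAD, while 7 to 8 of 12 root markers at 5 DAD and 6 to 9 of 12 at 3 DAD had no count, as had 7 to 9 of 12 seed markers at 5 DAD and 7 to 10 at 3 DAD. Root markers summed to 40.2 to 88.2 CPM at 5 DAD and 38.6 to 87.1 CPM at 3 DAD, and seed markers to 1.24 to 4.26 CPM at 5 DAD and 1.12 to 3.36 CPM at 3 DAD. Replicates 1 and 2 of ethanol-pretreated plants at 3 DAD stood apart in a list of genes that respond within minutes to touch and wounding: their median level, as log2(CPM + 1) minus the mean over the 12 libraries, was 2.13 and 1.79, against -1.26 to -0.08 in the other 10 libraries. Results that rest on these libraries are given with and without them. In bulk shoots, fewer cells of a type and less RNA per cell cannot be told apart.

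At 5 DAD, 3327 genes (18.5% of those tested) differed from 3 DAD, 1539 higher (8.54%) and 1788 lower (9.92%), and 704 (3.91%) differed at least 2-fold. The 6 libraries at 5 DAD did not overlap the 6 at 3 DAD for 1149 genes (6.37%), 512 of them higher and 637 lower. At the head of the falls were AT1G07050, which encodes a protein with a CCT motif, and COR27, a cold- and light-regulated partner of the clock. Both were reduced more than 10-fold in each arm. The lists with the lowest medians were the DREB factors and cold genes, touch and wound genes, low-sugar genes and the day and evening clock. Without replicates 1 and 2 of ethanol-pretreated plants at 3 DAD the touch and wound median was -0.46, and the salicylate and immunity median, -0.48, was lower. Among the lists with the highest medians were flower organ markers, flavonoid synthesis, the clade A PP2Cs, the morning clock and sulfur-status genes. Scaled to the library totals in place of TMM, the median change over all genes was 0.119 (log2) in place of 0.00 and the split became 2855 higher and 1146 lower, so directions of small changes depend on the scaling and are named where they turn.

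**Figure D1:**
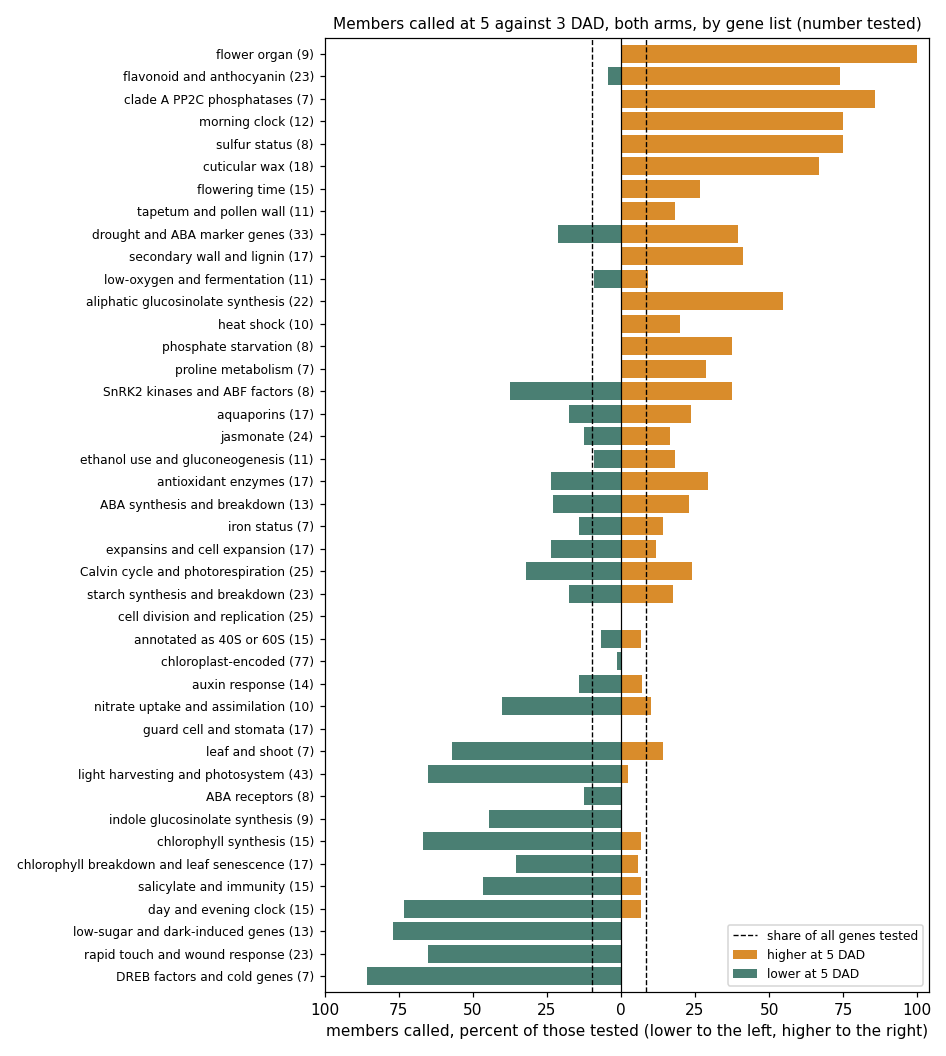
Members of each gene list called at 5 DAD against 3 DAD over both arms, as a percent of the members tested (number in brackets), higher to the right and lower to the left, with dashed lines at the shares of all genes tested (8.54% higher and 9.92% lower). Lists are ordered by their median change, from the flower organ markers (9 of 9 higher) to the DREB factors and cold genes (6 of 7 lower).

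Within ethanol-pretreated plants 1536 genes (8.52%) were called, 646 higher (3.58%) and 890 lower (4.94%) at 5 DAD, and within water-pretreated plants 2088 genes (11.6%) were called, 1037 higher (5.75%) and 1051 lower (5.83%). The overlap was 809 genes, which is 52.7% of the ethanol calls and 38.7% of the water calls, and 804 of these had the same direction. Of the 3327 genes called over both arms, 3323 had the same sign in each arm. The fit over both arms favours genes whose arms change alike, so that count is not a separate sign of agreement. Across the 18026 genes, which are not independent replicates, the changes of the arms, which share no library, correlated with r = 0.49. These counts rested on single libraries: the ethanol count fell to 785 without replicate 1 at 5 DAD, to 914 without replicate 1 at 3 DAD, to 1023 without replicate 2 at 3 DAD and to 281 without replicates 1 and 2 at 3 DAD, and the water count fell to 1145 without replicate 2 at 5 DAD and to 1348 without replicate 3 at 3 DAD. A test of the difference between the arms' changes called 3 genes (0.0166%), 2 with the higher change in ethanol-pretreated plants (0.0111%) and 1 with the lower (0.00555%), with 1335 genes at an unadjusted p under 0.05, so a call in one arm alone is not shown to differ from the other arm.

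Day and evening genes of the circadian clock fell. Of 15 day and evening clock genes, 11 fell and 1 rose at 5 DAD, with a median change of -0.73, against 0.00 over all genes. COR27 (AT5G42900), counted in the list of DREB factors and cold genes and described here as a clock output, had 2.29, 3.02 and 3.62 CPM (lowest, median and highest of 6 libraries) at 5 DAD and 24.0, 34.8 and 43.1 CPM at 3 DAD. Every library at 5 DAD lay below every library at 3 DAD, a fall of 11.5-fold (log2 change -3.53, SE 0.149, adjusted p = 2.66e-10). TOC1 (AT5G61380), the evening repressor of CCA1 and LHY, had 12.5, 14.6 and 19.8 CPM at 5 DAD and 32.6, 46.1 and 64.0 CPM at 3 DAD, without overlap (-1.61, SE 0.132, adjusted p = 4.53e-07). GRP7 (AT2G21660), an RNA-binding protein that the clock drives in the evening, fell by 1.52 on the log2 scale, with 634, 698 and 931 CPM at 5 DAD and 1938, 2094 and 2263 CPM at 3 DAD. Its 6 libraries at 3 DAD lay within a narrow band, and those at 5 DAD all lay far below it.

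The evening complex subunits LUX and ELF4, which together repress night-time targets, fell alongside. LUX had 8.22, 11.1 and 13.0 CPM at 5 DAD and 35.4, 39.4 and 40.03 CPM at 3 DAD (-1.82, SE 0.118, adjusted p = 4.11e-08), and ELF4 changed by -1.76. FKF1, the blue-light receptor and ubiquitin ligase that degrades repressors of flowering in the afternoon, changed by -2.14 with 10.6, 11.7 and 16.2 CPM at 5 DAD and 45.9, 53.5 and 66.6 CPM at 3 DAD, and PRR3, a partner of TOC1, changed by -1.75. The relatives of FKF1 did not pass the test: ZTL had a log2 change of 0.12 (adjusted p = 0.618) and LKP2 of 0.12 (adjusted p = 0.66). The member that rose was CDF1, a repressor of flowering that FKF1 degrades, by 0.95 (named here after its value was seen). Outside the list, AT1G07050 had 1.60, 3.02 and 4.97 CPM at 5 DAD and 40.9, 43.0 and 47.4 CPM at 3 DAD (-3.79, SE 0.188, adjusted p = 1.8e-09), AT4G33980, which the files and reference do not name, changed by -3.29, and BBX8, a B-box zinc finger protein, by -2.18. AT1G07050, AT4G33980 and BBX8 did not overlap between the days in either arm. Genes with the lowest changes were named only if the days did not overlap, so this is not a separate result.

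The morning side of the clock moved the other way: 9 of 12 genes rose, with a median change of 0.72. CCA1 (AT2G46830), the dawn-peaking MYB factor, had 41.1, 33.3 and 28.1 CPM in ethanol-pretreated and 47.5, 52.7 and 34.0 CPM in water-pretreated plants at 5 DAD, against 15.4, 14.4 and 22.0 CPM in ethanol-pretreated and 15.5, 14.1 and 13.8 CPM in water-pretreated plants at 3 DAD. All 6 libraries at 5 DAD lay above all 6 at 3 DAD (1.31, SE 0.158, adjusted p = 3.11e-05). Its partner LHY changed by 0.93, RVE8, which activates evening genes, by 1.13, RVE1, which links the clock to auxin, by 0.81, and LNK3, of the LNK family of clock co-regulators, by 1.15. PRR9, a morning repressor of CCA1, changed by 1.29 (2.43, 2.82 and 4.79 CPM at 5 DAD and 0.497, 1.45 and 1.83 CPM at 3 DAD), with the limit that a near-identical gene (AT2G46670) may share its reads. PRR7, which follows PRR9 in the day, had a log2 change of -0.15 (adjusted p = 0.31).

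**Figure D2:**
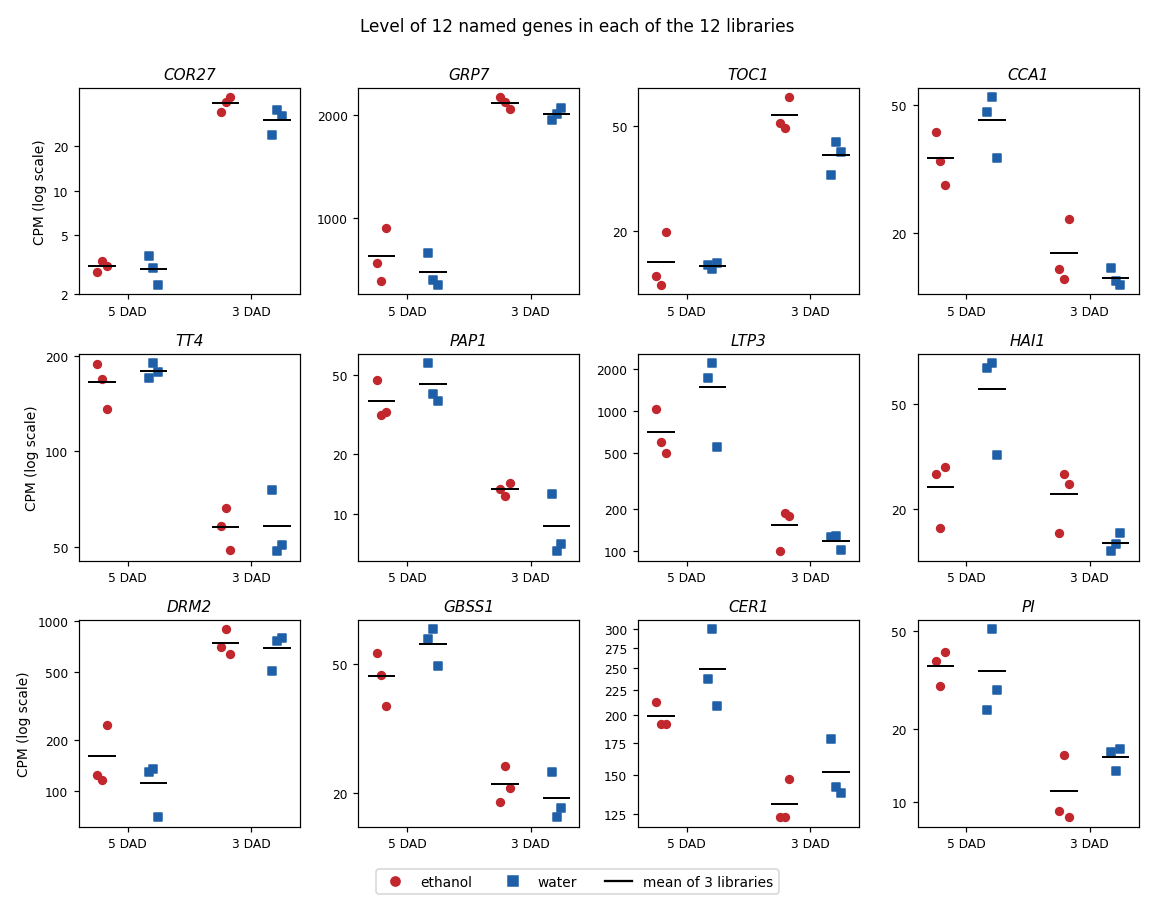
CPM of 12 genes in each of the 12 libraries on a log axis, 5 DAD left of 3 DAD, with ethanol-pretreated plants as circles, water-pretreated plants as squares and a bar at each mean of 3 libraries. COR27 had 2.29 to 3.62 CPM at 5 DAD and 24.0 to 43.1 CPM at 3 DAD, and CCA1 had 28.1 to 52.7 CPM at 5 DAD and 13.8 to 22.0 CPM at 3 DAD.

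The promoters of 4 clock genes are shown for 2 motifs, the first in both evening genes and the second in both morning genes. The evening element AAAATATCT, bound by CCA1, LHY and the RVE factors, and the G-box CACGTG, bound by bZIP and bHLH factors, were searched on both strands of the 250 bases before the annotated gene start (RefSeq, TAIR10.1). Matches are in capitals, in either orientation, and each line is written 5′ to 3′ on the strand of its gene. GRP7 lies at chr2:9266558-9266807 on the minus strand, TOC1 at chr5:24674713-24674962 on the plus strand, CCA1 at chr2:19245341-19245590 on the plus strand and PRR9 at chr2:19232357-19232606 on the plus strand.
GRP7: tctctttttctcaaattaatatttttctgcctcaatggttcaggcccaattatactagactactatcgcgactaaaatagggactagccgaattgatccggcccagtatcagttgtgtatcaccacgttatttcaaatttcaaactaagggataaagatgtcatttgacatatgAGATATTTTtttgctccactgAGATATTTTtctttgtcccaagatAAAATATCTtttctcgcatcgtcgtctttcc
TOC1: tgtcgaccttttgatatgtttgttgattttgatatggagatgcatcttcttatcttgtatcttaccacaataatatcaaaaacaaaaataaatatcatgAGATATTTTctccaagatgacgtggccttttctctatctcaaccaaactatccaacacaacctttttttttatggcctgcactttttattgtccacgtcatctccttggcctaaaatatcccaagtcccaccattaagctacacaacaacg
CCA1: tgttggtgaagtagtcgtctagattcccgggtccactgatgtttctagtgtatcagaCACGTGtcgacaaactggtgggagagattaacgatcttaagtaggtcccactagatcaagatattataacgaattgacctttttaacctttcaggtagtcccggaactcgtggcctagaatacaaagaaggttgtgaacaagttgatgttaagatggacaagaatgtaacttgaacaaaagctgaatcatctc
PRR9: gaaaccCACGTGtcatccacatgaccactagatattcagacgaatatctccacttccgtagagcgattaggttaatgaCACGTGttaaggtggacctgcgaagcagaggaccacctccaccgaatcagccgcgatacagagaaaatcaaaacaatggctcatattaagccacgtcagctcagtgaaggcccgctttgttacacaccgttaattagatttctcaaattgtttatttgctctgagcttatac
GRP7 held 3 evening elements and TOC1 held 1, CCA1 held 1 G-box and PRR9 held 2. The evening element was found in 2.63% of the 17855 promoters of tested genes, in 5.78% of promoters of genes called lower at 5 DAD, in 9.38% of those lower by at least 1 on the log2 scale, in 2.62% of those called higher, and in 7 of the 15 day and evening clock genes. The G-box was found in 7.60% of all promoters, in 10.4% of those called higher, in 7.13% of those called lower, and in 7 of the 12 morning clock genes. The G-box can overlap the ABA response element ACGTGNC, which was found in 9.88% of all promoters and in 8 of the 12 morning clock genes. The W-box TTGAC and the DRE core CCGAC were searched as well. The W-box was found in 44.6% of all promoters, in 46.7% of those called lower, in 58.8% of those lower by at least 1 and in 44% of those called higher. In the same order, the DRE core was found in 13.2%, 12.5%, 10.6% and 11.6%. A match is a description of these letters only.

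Over the whole series, fitted once for all 30 libraries, 3 DAD was the harvest at which COR27, GRP7 and TOC1 stood highest in both arms. COR27 averaged 6.16, 0.820, 38.2, 2.98 and 1.36 CPM in ethanol-pretreated plants at 0, 1, 3, 5 and, last, 7 DAD, and 1.57, 0.644, 29.6, 2.89 and 13.1 CPM in water-pretreated plants. TOC1 averaged 20.8, 9.10, 53.1, 14.8 and 8.66 CPM in ethanol-pretreated plants and 15.6, 8.54, 37.6, 14.4 and 16.9 CPM in water-pretreated plants at the same harvests. For COR27 and TOC1 the levels at 5 DAD were nearer to those at 0 and 1 DAD than to those at 3 DAD, and the fall did not continue a trend of the earlier harvests. LHY was lowest at 3 DAD in both arms, with 7.68 CPM in ethanol-pretreated and 6.17 CPM in water-pretreated plants, whereas GOLS2, an enzyme of raffinose synthesis, increased at each harvest in both arms, averaging 135 CPM in ethanol-pretreated and 128 CPM in water-pretreated plants at 3 DAD and 249 and 295 CPM at 5 DAD in the same arms.

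**Figure D3:**
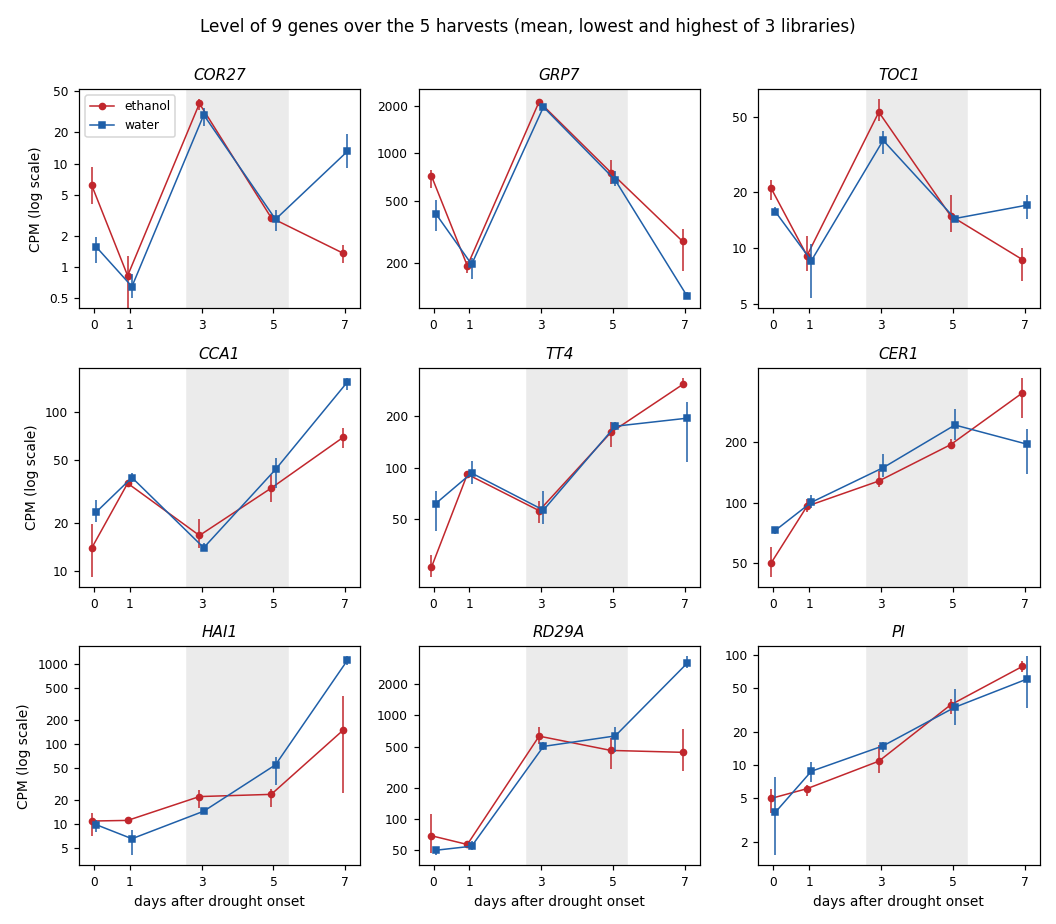
CPM of 9 genes on a log axis against days after drought (0, 1, 3, 5 and 7), as means of 3 libraries for ethanol-pretreated plants (circles) and water-pretreated plants (squares) with bars from the lowest to the highest library; grey marks 3 to 5 DAD, and the COR27 bar of ethanol-pretreated plants at 1 DAD reaches 0 and is cut at the axis. COR27, GRP7 and TOC1 were highest at 3 DAD in both arms, while PI increased at each harvest.

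Flavonoid and anthocyanin genes rose together. Of 23 members tested, 17 rose and 1 fell at 5 DAD, with a median change of 1.24. Within the arms, 14 rose in ethanol-pretreated and 14 in water-pretreated plants. The member that fell was MYBL2, a repressor of anthocyanin synthesis, by 0.25 (named here after its value was seen), and it was not called with library totals. TT4 (AT5G13930), chalcone synthase, which makes the first flavonoid skeleton, had 189, 169 and 136 CPM in ethanol-pretreated and 170.1, 189 and 178 CPM in water-pretreated plants at 5 DAD, against 58.3, 66.0 and 48.9 CPM in ethanol-pretreated and 75.5, 48.4 and 50.6 CPM in water-pretreated plants at 3 DAD. The days did not overlap, and the rise was 2.97-fold (1.57, SE 0.116, adjusted p = 1.43e-07). TT7, which hydroxylates flavonoids, changed by 1.69, FLS1, flavonol synthase, by 1.61, and DFR, which commits the path to anthocyanins, by 1.91 (19.5, 29.7 and 52.9 CPM at 5 DAD and 3.70, 9.31 and 12.3 CPM at 3 DAD).

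Of the regulators, PAP1, a MYB activator of anthocyanin synthesis, had 31.6, 38.8 and 57.5 CPM at 5 DAD and 6.50, 12.4 and 14.4 CPM at 3 DAD (1.92, SE 0.198, adjusted p = 6.11e-06). Again each library at 5 DAD was above each at 3 DAD. TTG1, the WD40 scaffold with which such MYB factors act, did not pass the test (-0.12, adjusted p = 0.452), nor did PAL2, an enzyme that feeds phenylpropanoids into the path (0.16, adjusted p = 0.363). The promoter of TT4 is shown for its G-box (in capitals), which lies among the letters furthest from the gene start; it is the stretch chr5:4488226-4488475 on the plus strand of the same assembly. A G-box was found in 6 of the 23 flavonoid promoters.
TT4: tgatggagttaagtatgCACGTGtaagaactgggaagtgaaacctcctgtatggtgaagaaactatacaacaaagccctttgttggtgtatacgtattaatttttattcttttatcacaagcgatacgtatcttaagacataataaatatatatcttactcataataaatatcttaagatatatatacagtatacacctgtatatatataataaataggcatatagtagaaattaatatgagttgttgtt
Across the 5 harvests TT4 averaged 26.3, 91.5, 56.1, 160 and 305 CPM in ethanol-pretreated plants and 61.8, 92.9, 56.6, 174 and 194 CPM in water-pretreated plants. The level at 3 DAD was therefore below those at 1 and 5 DAD in both arms.

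Drought and ABA genes rose in part, and more of them rose in water-pretreated plants. Of 33 drought and ABA markers, 13 rose and 7 fell over both arms (median 0.33). Of the 33, 4 rose and 9 fell in ethanol-pretreated plants (median 0.03), and 18 rose and 3 fell in water-pretreated plants (median 0.59). The change was lower in ethanol-pretreated than in water-pretreated plants for 32 of the 33 (50.3% of all genes did the same). The members were measured in the same 12 libraries and are not independent, so a shift of a few libraries can move many at once. At 3 DAD their median level, on the centred scale above, was -0.11, -0.09 and 0.13 in ethanol-pretreated and -0.20, -0.37 and -0.42 in water-pretreated plants. No member passed the test of that difference in edgeR (lowest adjusted p = 0.160), although 22 had an unadjusted p under 0.05 and DESeq2 called 6. With library totals, 16 rose and 2 fell over both arms.

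LTP3 and LTP4, lipid-transfer proteins, rose furthest among them. LTP3 had 1037, 597 and 501 CPM in ethanol-pretreated and 1733, 2189 and 551 CPM in water-pretreated plants at 5 DAD, against 99.3, 186 and 176 CPM in ethanol-pretreated and 126, 127 and 101.1 CPM in water-pretreated plants at 3 DAD. No library at 5 DAD fell within the 3 DAD range, but replicate 3 of water-pretreated plants at 5 DAD was well under the other 2 of its group (2.93, SE 0.334, adjusted p = 1.78e-05). LTP4 changed by 2.51. RD20, a calcium-binding caleosin of oil bodies, had 176, 256 and 366 CPM at 5 DAD and 86.4, 117 and 125 CPM at 3 DAD (1.201, SE 0.132, adjusted p = 1.28e-05), and GOLS2 changed by 1.04, both without overlap. P5CS1, the rate-limiting enzyme of proline synthesis, changed by 0.75 over both arms, 0.19 in ethanol-pretreated plants (adjusted p = 0.715) and 1.31 in water-pretreated plants (adjusted p = 0.000886).

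The homeodomain factors HB-7 and HB-12, which ABA induces and which raise PP2C expression, changed by 0.99 and 1.01. HB-7 had 140.4, 78.5 and 114 CPM in ethanol-pretreated and 216, 255 and 117 CPM in water-pretreated plants at 5 DAD, against 75.6, 78.3 and 113 CPM in ethanol-pretreated and 77.9, 52.8 and 55.4 CPM in water-pretreated plants at 3 DAD. In water-pretreated plants the days did not overlap, whereas in ethanol-pretreated plants they did. RD29B, a strongly ABA-dependent gene, changed by 1.68 in water-pretreated plants (adjusted p = 0.0144) but did not pass over both arms (0.87, adjusted p = 0.123), with 66.0, 69.2 and 13.2 CPM in replicates 1 to 3 of water-pretreated plants at 5 DAD. RD29A, which DREB factors also control, had a log2 change of -0.06 (adjusted p = 0.891) and COR15A, a chloroplast cold and drought protein, of -0.09 (adjusted p = 0.826). Among the falls, GOLS3, the cold-induced relative of GOLS2, changed by -0.50 (adjusted p = 0.125 with library totals, where it was not called).

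Of 7 clade A PP2Cs, the negative regulators of ABA signalling, 6 rose (median 0.75), with 4 to 6 called when single libraries were left out. In the arms, 1 rose in ethanol-pretreated plants (median 0.22) and 6 rose in water-pretreated plants (median 1.05). HAI1, an ABA-induced member, had 27.1, 17.0 and 28.8 CPM in ethanol-pretreated and 67.7, 70.8 and 31.9 CPM in water-pretreated plants at 5 DAD, against 16.2, 27.2 and 24.99 CPM in ethanol-pretreated and 13.9, 14.8 and 16.2 CPM in water-pretreated plants at 3 DAD. In water-pretreated plants the rise was 3.78-fold (adjusted p = 0.000287), and in ethanol-pretreated plants the log2 change was 0.11 (adjusted p = 0.9). The difference of the changes was -1.81 (adjusted p = 0.166). All 7 members, which are not independent of each other, had a lower change in ethanol-pretreated plants. HAB1 changed by 0.87, ABI2 by 0.75 and HAB2 by 0.51 over both arms, while ABI1 did not pass the test (adjusted p = 0.995). Replicate 3 of water-pretreated plants at 5 DAD had a lower median PP2C level, 0.02 on the same centred scale as above, than replicates 1 and 2 (0.67 and 0.74), and its drought markers stood at -0.20, against 0.51 and 0.49.

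Of 8 ABA receptors 1 fell, beside 9.92% of all genes tested. It was PYL8 (-0.51, with 30.04, 38.2 and 47.9 CPM at 5 DAD and 48.9, 52.1 and 61.4 CPM at 3 DAD), and PYR1 had a log2 change of 0.06 (adjusted p = 0.731). Among 8 SnRK2 and ABF genes, OST1, the guard cell kinase, changed by 0.52, ABF2 by 0.72 and ABF3 by 0.85, whereas SNRK2.2 changed by -0.35 and ABF1 by -0.40. NCED3, which cuts carotenoids in the limiting step of drought-induced ABA synthesis, had 14.6, 10.95 and 17.3 CPM in ethanol-pretreated and 26.6, 28.7 and 17.58 CPM in water-pretreated plants at 5 DAD, against 21.8, 28.4 and 24.6 CPM in ethanol-pretreated and 16.1, 12.2 and 17.0 CPM in water-pretreated plants at 3 DAD. Within each arm the days did not overlap and the directions were opposite: NCED3 fell by 0.79 in ethanol-pretreated plants (adjusted p = 0.0344) and changed by 0.69 in water-pretreated plants (adjusted p = 0.0548), with a difference of -1.48 (adjusted p = 0.16). ABA1, the zeaxanthin epoxidase earlier in the path, rose by 0.40, and so did the ABA hydroxylases CYP707A1 (1.16) and CYP707A2 (1.09), which break ABA down. Of 17 guard cell and stomata genes edgeR called 0, as did DESeq2, with 0 at an unadjusted p under 0.05. Among all 18026 genes tested, edgeR called 18.5%, and 4554 had an unadjusted p under 0.05.

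**Figure D4:**
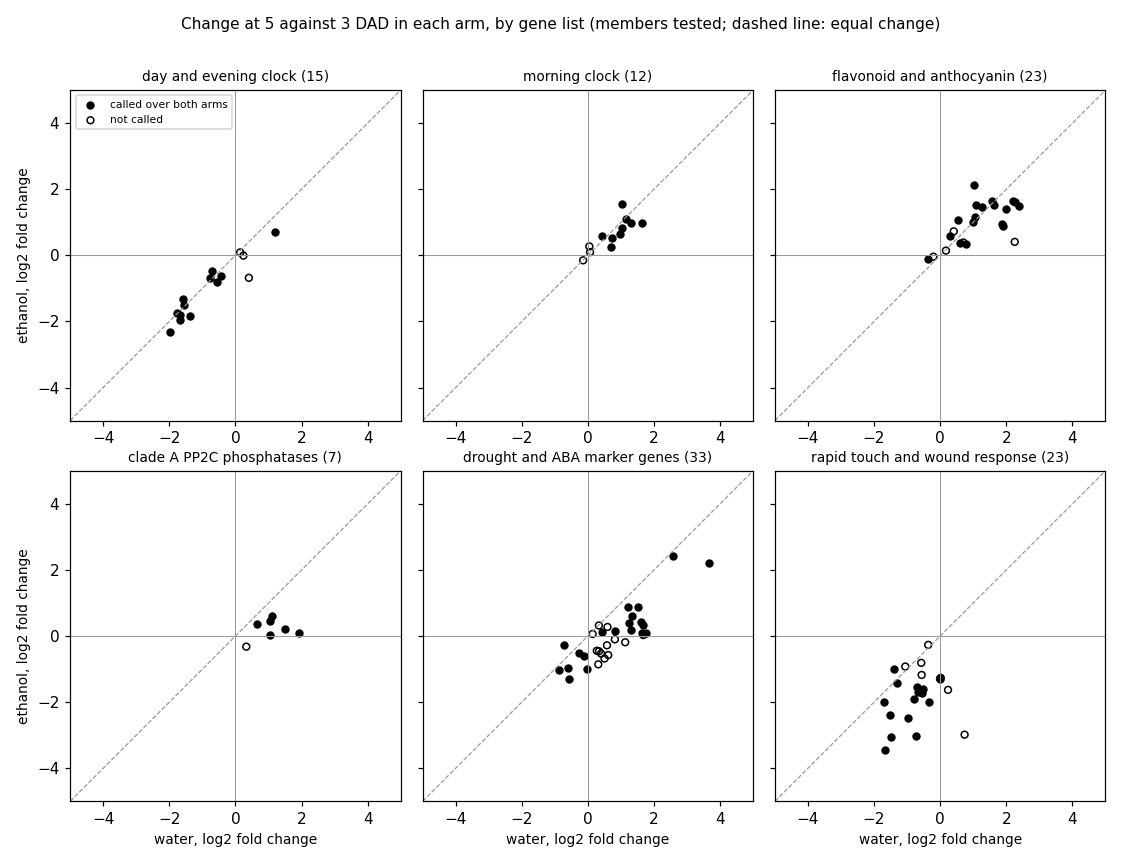
Log2 change of 5 DAD over 3 DAD in ethanol-pretreated plants (vertical axis) against that in water-pretreated plants (horizontal axis) for the members of 6 gene lists, filled where called over both arms, with a dashed line of equal change. The drought and ABA markers lie on the water side of the line for 32 of 33 genes and the clade A PP2Cs for 7 of 7. Members of a list are not independent of each other.

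Genes that respond to touch and wounding fell, and this rested largely on 2 libraries. Of 23 members, 15 fell over both arms (median -1.17), 16 in ethanol-pretreated plants (median -1.63) and 3 in water-pretreated plants (median -0.67). Without replicates 1 and 2 of ethanol-pretreated plants at 3 DAD, 8 fell (median -0.46) over both arms. WRKY40, a wound- and immunity-induced repressor, had 7.33, 3.35 and 4.65 CPM in ethanol-pretreated and 3.302, 2.45 and 4.40 CPM in water-pretreated plants at 5 DAD, against 99.9, 69.4 and 6.59 CPM in ethanol-pretreated and 16.5, 5.04 and 11.1 CPM in water-pretreated plants at 3 DAD. The first 2 ethanol values at 3 DAD stood far above the other 10 libraries, and the change of -2.68 became -1.24 without them; a near-identical gene (AT3G32090) may also share its reads. CML38, a calmodulin-like protein, changed by -2.51 (-1.16 without them), WRKY33, a regulator of camalexin synthesis, by -1.76 (-0.90), SZF1, a zinc finger protein, by -1.96 (-0.80), and TCH3, a calmodulin-like touch gene, by -1.96 (-1.39). TCH3 also fell in water-pretreated plants, with 32.5, 28.1 and 69.4 CPM at 5 DAD and 112, 149.9 and 112 CPM at 3 DAD.

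The same 2 libraries carried part of the fall of the DREB factors and cold genes, a list of 5 DREB factors with COR27 and RAV1. Of the 7 members 6 fell (median -1.20), 4 of them DREB factors, and without the 2 libraries 4 fell (median -0.80), 2 of them DREB factors. CBF1, the cold-induced DREB1B factor, had 72.6, 61.2 and 13.1 CPM in replicates 1 to 3 of ethanol-pretreated plants at 3 DAD, against 3.94 to 9.75 CPM in the other 9 libraries, and its change of -1.85 became -0.80. CBF2 changed by -1.20 and DREB2A, the drought- and heat-induced factor, by -1.22, and without the 2 libraries their adjusted p values were 0.257 and 0.347. DREB2A also lost its call when replicate 2 of ethanol-pretreated plants at 3 DAD, or any one ethanol library of 5 DAD, was left out (highest adjusted p = 0.142). Scaled over all 30 libraries, DREB2A averaged 27.9 CPM at 3 DAD and 5.39 CPM at 5 DAD in ethanol-pretreated plants. In water-pretreated plants it averaged 8.56 and 8.14 CPM, so its fall was seen in the ethanol arm only. RAV1, a growth repressor that cold also induces, fell with or without them (-0.90 and -0.91). What set these libraries apart was not tested.

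**Figure D5:**
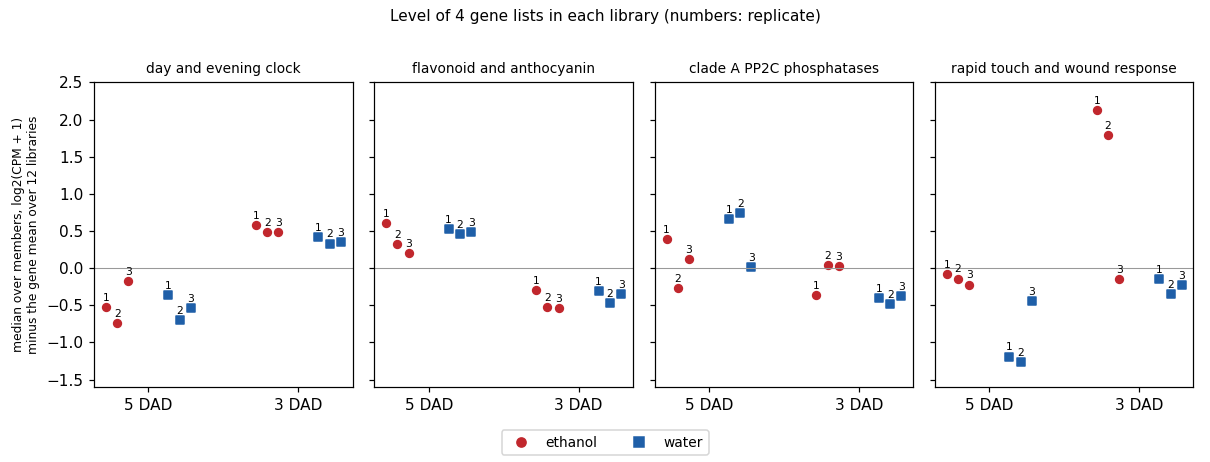
Median over the members of 4 gene lists of log2(CPM + 1) minus the gene mean over the 12 libraries, for each library (replicate numbers shown), 5 DAD left of 3 DAD, with ethanol-pretreated plants as circles and water-pretreated plants as squares. The touch and wound list lies at 2.13 and 1.79 in replicates 1 and 2 of ethanol-pretreated plants at 3 DAD and at -1.26 to -0.08 in the other 10 libraries.

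Salicylate and immunity genes fell less steeply, 7 of 15 (median -0.55), and the same number fell without the 2 libraries (median -0.48). On the centred scale 2 libraries at 5 DAD stood apart, replicate 2 of ethanol-pretreated plants at 0.52 and replicate 3 of water-pretreated plants at 0.20, against -0.79 to -0.45 in the other 4 at 5 DAD and 0.06 to 0.44 at 3 DAD. SARD1 and CBP60G, the paired activators of salicylate synthesis, changed by -1.33 and -1.33, and PAD4, a partner of EDS1 in immune signalling, by -0.93. WRKY70, which balances salicylate against jasmonate, had 142, 196 and 244 CPM at 5 DAD and 289.7, 323 and 473 CPM at 3 DAD, without overlap (-0.81, SE 0.118, adjusted p = 0.000186). The late defence gene PR1 varied too widely for a call, with 4.96 to 310 CPM at 5 DAD and 5.21 to 99.1 CPM at 3 DAD (adjusted p = 0.754), and BGL2, a secreted glucanase, likewise (adjusted p = 0.835). BG3, another beta-1,3-glucanase, changed by -2.53. Of the jasmonate genes, JAZ1, a repressor of the pathway, changed by -1.31 (-0.72 without the 2 libraries) and VSP1, a vegetative storage protein, by 0.93, whereas LOX2, a lipoxygenase of jasmonate synthesis, had a log2 change of 0.18 (adjusted p = 0.458).

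Genes that sugar shortage and darkness induce fell in both arms. Of 13 members 10 fell (median -0.91), 9 in ethanol-pretreated plants and 10 in water-pretreated plants. DRM2, a dormancy-associated protein, had 124, 116 and 243 CPM in ethanol-pretreated and 129.5, 135 and 70.0 CPM in water-pretreated plants at 5 DAD, against 699, 887 and 639 CPM in ethanol-pretreated and 509, 761 and 789 CPM in water-pretreated plants at 3 DAD. The days were far apart in each arm, a fall of 5.32-fold (-2.41, SE 0.200, adjusted p = 5.22e-07). DYL1, its relative, changed by -1.51, DIN10, a raffinose synthase-like protein, by -1.36, ASN1, the dark-induced asparagine synthetase, by -1.17, SEN1 by -1.63 and BXL1, a cell wall xylosidase, by -0.96. ASN1 averaged 583, 97.2, 57.5, 28.4 and 41.1 CPM in ethanol-pretreated plants and 241, 86.3, 66.7, 26.5 and 126 CPM in water-pretreated plants over the 5 harvests, so that for ASN1 the fall went on from earlier harvests. AT3G15450, whose product carries YGL and LRDR motifs, changed by -2.19, and BT2, a nitrate- and sugar-responsive BTB/TAZ protein, by -2.31 (2.88, 4.27 and 5.60 CPM at 5 DAD and 7.76, 20.6 and 34.8 CPM at 3 DAD).

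Starch genes did not move as one: 4 of 23 rose and 4 fell (median -0.01; 8 rose and 3 fell, median 0.11, with library totals). GBSS1, the granule-bound starch synthase that makes amylose and is clock-driven, had 37.2, 51.6 and 64.0 CPM at 5 DAD and 16.8, 19.8 and 24.2 CPM at 3 DAD (1.35, SE 0.131, adjusted p = 3.42e-06). No libraries overlapped, and APL3, a subunit of the enzyme that makes ADP-glucose, also rose (1.00). Of the beta-amylases, BAM5 changed by 1.79, BAM1, which works in guard cells under osmotic stress, by 0.59, and CT-BMY, the chloroplast enzyme of night-time starch breakdown, by -0.61. Of 11 genes of ethanol use and gluconeogenesis, 2 were higher and 1 was lower, beside 8.54% higher and 9.92% lower among all genes tested. AAE7, which activates acetate, changed by 0.67 and PPDK by 0.82. PCK1, the key enzyme of gluconeogenesis, had a log2 change of -0.03 (adjusted p = 0.845). ADH1, alcohol dehydrogenase, had one of 0.38 (adjusted p = 0.165), and of 0.84 in water-pretreated plants (adjusted p = 0.00703).

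Wax genes rose in both arms: 12 of 18 over both (median 0.48), 10 in ethanol-pretreated and 9 in water-pretreated plants. CER1 and CER3, which together make the alkanes of the cuticle, changed by 0.65 and 0.59. CER1 had 191, 211 and 299.6 CPM at 5 DAD and 123, 139.8 and 179 CPM at 3 DAD, without overlap. CER4, which makes primary alcohols, changed by 1.48, WSD1, a drought-induced wax ester synthase, by 1.198 and CYP96A15, the midchain alkane hydroxylase, by 1.86 (58.7, 128 and 185 CPM at 5 DAD and 12.1, 33.1 and 59.6 CPM at 3 DAD). In the secondary wall and lignin list 7 of 17 rose (median 0.31), among them CCR1, which opens the lignin branch (0.51), and IRX12, a laccase (0.59).

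Transcripts of sulfur-status genes rose as well. Of 8 sulfur-status genes 6 rose (median 0.71), and of 22 aliphatic glucosinolate genes 12 rose (median 0.29; 17 with library totals). APR2, the main enzyme that reduces activated sulfate, had 103, 107 and 111 CPM at 5 DAD and 42.4, 51.4 and 66.3 CPM at 3 DAD (1.02, SE 0.0947, adjusted p = 1.97e-06). The values at 5 DAD were close together in both arms and all lay above 3 DAD. APR1 changed by 0.50, APR3 by 0.49, and the low-sulfur response proteins LSU1 and LSU2 by 1.08 and 0.92. MYB28 and MYB29, which switch on aliphatic glucosinolate synthesis, changed by 0.36 and 0.47, and FMO GS-OX3, which oxidises the side chain, by 0.57, while CYP79F1 (0.16, adjusted p = 0.22) and MAM1 (-0.02, adjusted p = 0.905), core enzymes, did not pass. In the indole branch 4 of 9 fell (median -0.25; 2 of 9 without replicates 1 and 2 of ethanol-pretreated plants at 3 DAD), with MYB51, its activator, at -1.39 (-0.96) and CYP83B1 at -0.48.

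Photosynthesis genes fell by small amounts, and within the arms most calls were in water-pretreated plants. Among all genes tested, 4.94% were called lower in ethanol-pretreated and 5.83% in water-pretreated plants. Of 43 genes of light harvesting and the photosystems 28 fell and 1 rose (median -0.24), 3 fell in ethanol-pretreated plants (median -0.17) and 24 in water-pretreated plants (median -0.30); with library totals 16 fell and 2 rose (median -0.12). These genes take a large share of each library. The leaf marker sum had a median of 50748 CPM at 5 DAD and 63466 CPM at 3 DAD. The marker list itself holds photosynthesis genes, among them CAB1, LHCB5, PSBO1 and RBCS1A, so its sum is not a separate measure. The part of the leaf share in the result was not tested. LHB1B1, an antenna protein of photosystem II, had 1971, 2559.6 and 3369 CPM in ethanol-pretreated and 2690.4, 2179 and 2397 CPM in water-pretreated plants at 5 DAD, against 4347, 3871 and 4811 CPM in ethanol-pretreated and 5240.3, 5438 and 5979 CPM in water-pretreated plants at 3 DAD, without overlap (-0.96, SE 0.118, adjusted p = 3.91e-05). CAB1, another antenna protein, changed by -0.49, LHCB4.1 by -0.40 and RBCS1A, a small subunit of Rubisco, by -0.49, while LHCB4.3, a stress-linked relative of LHCB4.1, rose by 0.61.

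In chlorophyll synthesis 10 of 15 genes fell and 1 rose (median -0.37; 8 fell and 2 rose, median -0.25, with library totals). PORB, which reduces protochlorophyllide in the light, had 639, 779.7 and 1039 CPM at 5 DAD and 1376, 1589 and 1712 CPM at 3 DAD (-0.95, SE 0.0952, adjusted p = 4.59e-06), PORA, its form of dark-grown seedlings, changed by -0.74 and GSA2, an early enzyme, by -0.64. GUN5, a subunit of magnesium chelatase, did not pass (adjusted p = 0.361). Genes of the Calvin cycle and photorespiration were mixed, 6 of 25 higher and 8 lower (median -0.01), and with library totals 10 higher and 2 lower (median 0.11), so their overall direction turned with the scaling. FBA1, an aldolase, rose by 0.50 and GLDP1, of photorespiration, by 0.40, while RCA, Rubisco activase, had a log2 change of 0.18 (adjusted p = 0.107). CAT2, the catalase of photorespiration, rose without overlap, with 568, 679 and 738 CPM at 5 DAD and 345, 366 and 433 CPM at 3 DAD (0.83, SE 0.0731, adjusted p = 1.02e-06).

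Of 17 chlorophyll breakdown and leaf senescence genes 6 fell and 1 rose (median -0.48; 4 fell, median -0.28, without replicates 1 and 2 of ethanol-pretreated plants at 3 DAD). NYC1, which reduces chlorophyll b, changed by -0.55 and WRKY53, an early senescence regulator, by -2.11 (-1.08 without the 2 libraries). SAG12, the protease used to mark late senescence, ranged over 1.22 to 245 CPM at 5 DAD and 1.57 to 603 CPM at 3 DAD (adjusted p = 0.52). Single water-pretreated libraries held both maxima. The 77 chloroplast-encoded genes tested had a median of -0.02 over both arms. It was 0.36 in ethanol-pretreated plants (4 rose, beside 3.58% of all genes tested) and -0.41 in water-pretreated plants (7 fell, beside 5.83%). EdgeR called none of the differences between the arms for these genes, with 34 at an unadjusted p under 0.05 and 4 called by DESeq2. On the centred scale, replicate 1 of each arm at 5 DAD stood apart in their median level: it was 0.58 in ethanol replicate 1, against -0.13 and 0.11 in replicates 2 and 3 and -0.18 to 0.11 in ethanol-pretreated plants at 3 DAD. It was -0.52 in water replicate 1, against -0.08 and -0.08 in replicates 2 and 3 and 0.01 to 0.39 in water-pretreated plants at 3 DAD. Water channels were called in both directions, more of them higher than lower. Among those that fell, TIP2, of the vacuole membrane, changed by -0.61 and PIP1;5, of the plasma membrane, by -0.54.

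Floral transcripts rose within the shoot. All 9 flower organ markers rose (median 1.28), 7 in ethanol-pretreated plants (median 1.70) and 3 in water-pretreated plants (median 1.00), and their summed level was 94.7 to 193 CPM at 5 DAD and 31.8 to 92.2 CPM at 3 DAD, with no member at 0. PI, a petal and stamen identity factor, had 37.6, 29.8 and 40.8 CPM in ethanol-pretreated and 23.8, 50.6 and 28.7 CPM in water-pretreated plants at 5 DAD, against 9.21, 15.6 and 8.70 CPM in ethanol-pretreated and 16.1, 13.4 and 16.5 CPM in water-pretreated plants at 3 DAD, without overlap (1.43, SE 0.192, adjusted p = 9.13e-05). Its partner AP3 changed by 1.28, AG, which sets stamens and carpels, by 1.21, and SHP1, SHP2 and STK, of carpels and ovules, by 1.45, 1.88 and 2.01. Of 15 flowering-time genes 4 rose, among them AP1 (1.00), AGL8 (0.75) and SPL9 (0.69), while AGL20 (SOC1) had a log2 change of 0.12 (adjusted p = 0.364) and SVP, a repressor of flowering, of 0.11 (adjusted p = 0.384).

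Of 11 tapetum and pollen wall genes tested, 2 rose, both pollen coat oleosins. GRP17 had 198, 184 and 153 CPM in ethanol-pretreated and 80.0, 200.4 and 144 CPM in water-pretreated plants at 5 DAD, against 4.60, 21.1 and 5.22 CPM in ethanol-pretreated and 29.7, 84.9 and 50.4 CPM in water-pretreated plants at 3 DAD (2.62, SE 0.482, adjusted p = 0.00126), and GRP16 changed by 3.70. For both genes the ranges of the days overlapped only in water-pretreated plants. The whole tapetum and pollen wall list, 13 genes with 1 to 2 at 0 in each library, summed to 141 to 258 CPM at 5 DAD and 31.1 to 123 CPM at 3 DAD. Most of the sum at 5 DAD was GRP17. The other 9 genes tested, with log2 changes of -0.26 to 0.61, did not pass the test. A7, a tapetum protein, had a log2 change of -0.26 (adjusted p = 0.727). Of the other genes at the head of the rises, AT5G37970, a methyltransferase, had 3.62 to 21.3 CPM at 5 DAD and 0 to 2.48 CPM at 3 DAD, and AT3G14040, a pectin lyase-like protein, and AT3G28830, a mucin-like protein, changed by 3.55 and 3.28. AT3G28270, a protein with a DUF677 domain, had 86.8, 139.9 and 247 CPM at 5 DAD and 13.4, 21.8 and 27.3 CPM at 3 DAD (2.82, SE 0.231, adjusted p = 4.53e-07), and AT2G15020, an uncharacterized protein, changed by 2.63. Of 25 cell division genes edgeR called 0, as did DESeq2, with 3 at an unadjusted p under 0.05. Over all genes tested edgeR called 18.5%.

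Among genes at high levels that are in none of these lists, GER3, a germin, changed by -1.35, CP29, a chloroplast RNA-binding protein, by -1.27 and MEE14 by -1.40. CP29 had 223, 265 and 347 CPM at 5 DAD and 631, 657 and 682 CPM at 3 DAD. Upward, AT4G21650, a subtilase, changed by 1.05. Of the heat shock list, HSP70, a cytosolic chaperone, changed by 1.19 and had 12.2, 17.3 and 24.8 CPM at 5 DAD and 7.03, 7.85 and 9.04 CPM at 3 DAD. Its libraries did not overlap between the days.

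The 3 genes whose change differed between the arms were AT4G33355, a lipid-transfer family protein, AT4G38860, a SAUR-like protein, and MYB47, a MYB factor. AT4G33355 had 30.03, 44.4 and 30.1 CPM at 5 DAD and 0.485, 0.915 and 0.373 CPM at 3 DAD in ethanol-pretreated plants, a rise of 57.9-fold, against 18.7, 28.2 and 33.0 CPM at 5 DAD and 3.51, 10.3 and 9.69 CPM at 3 DAD in water-pretreated plants, a rise of 3.35-fold (difference 4.11, SE 0.563, adjusted p = 0.0227). The levels at 5 DAD overlapped between the arms, and those at 3 DAD did not. The ethanol values at 3 DAD rest on few reads, so the sizes of that rise and of the difference are imprecise. AT4G38860 rose in ethanol-pretreated plants (1.09, adjusted p = 0.00279) and fell in water-pretreated plants (-0.59, adjusted p = 0.069). MYB47 rose in water-pretreated plants (1.64, adjusted p = 0.000239) and had a log2 change of -0.28 in ethanol-pretreated plants (adjusted p = 0.583). XTH3, a cell wall xyloglucan enzyme, came next, with 4.82 in ethanol-pretreated and 1.88 in water-pretreated plants, and its difference was not called (adjusted p = 0.104).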

How the data were processed

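Lasy-Seq libraries were made from shoot RNA, and per the study's methods the authors trimmed the first read with Trimmomatic, aligned it to TAIR10 with HISAT2 and counted reads per gene with featureCounts; bcl2fastq is also listed in the submitters' processing notes. Counting used the read's strand and whole gene models, and a read that overlaps several genes on its strand counts for each. The deposited table holds raw counts per gene, not normalized; the authors' table of counts scaled per library was not used. No column was left unmapped. The 12 libraries held 6409081 to 13061181 counts, which limits how precisely low genes are measured. Replicates of a group differed by more than sampling noise, so none was counted as a repeat.

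Counts were tested with edgeR 4.0.16 in R 4.3.3 (filterByExpr, TMM factors 0.925 to 1.10, quasi-likelihood test), with terms for arm and day, and with 1 mean per group for each arm's change and the difference. The filter kept 18026 of 27417 genes and 99.9% of counts. P-values were adjusted by Benjamini-Hochberg over all genes tested, and genes were called under 0.1, the study's own threshold. The method was tested on simulated data. Alternatives were DESeq2 1.42.0, RLE size factors, library totals, no filter, all 30 libraries, 1 mean per group, the replicate number as a block, each library left out, and, added after seeing the data, leaving out replicates 1 and 2 of ethanol-pretreated plants at 3 DAD. Courses over 5 harvests used CPM scaled over the 30 libraries.

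The comparison, the gene lists and the named genes were chosen with earlier results of these data known. Named genes were the 10 highest and 10 lowest called changes without overlap and with at least 50 counts on average, the 6 most abundant called genes in each direction with a log2 change of at least 1, called differences between the arms, up to 6 called and 2 uncalled members of each list, and the 16 genes named by the study. Lists are described by counts and medians only. Identifiers matched RefSeq (TAIR10.1) for 26720 genes. Near-identical copies were sought with BLAST 2.17.0 (at least 100 bases at 95% identity), and MYB90, WRKY40 and PRR9 had one.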

Additional observations from a re-analysis of the deposited data

Results flagged for a closer look

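Each of the following genes stood out because its change between 3 and 5 DAD differed between the arms in edgeR's test of that difference (log2, ethanol minus water). For AT4G33355 the difference was 4.11, and it was called in 17 of the 19 alternatives (adjusted p 5.65e-09 to 0.151). For AT4G38860 it was 1.67, called in 7 of 19 (adjusted p 8.31e-06 to 0.409), with 57.3, 79.3 and 67.8 CPM at 5 DAD and 28.8, 31.1 and 35.9 CPM at 3 DAD in ethanol-pretreated plants, against 49.7, 44.3 and 83.0 CPM at 5 DAD and 80.8, 95.04 and 90.5 CPM at 3 DAD in water-pretreated plants. For MYB47 it was -1.92, called in 8 of 19 (adjusted p 1.81e-05 to 0.427), with 24.0, 18.4 and 19.6 CPM at 5 DAD and 26.05, 30.3 and 19.3 CPM at 3 DAD in ethanol-pretreated plants, against 40.5, 34.9 and 35.0 CPM at 5 DAD and 8.05, 10.3 and 16.9 CPM at 3 DAD in water-pretreated plants. Every alternative gave each of the 3 genes the same direction.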

How the results depend on the processing

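Over both arms the count of 3327 stayed within 2682 to 3332 when single libraries were left out, and it was 3545 with DESeq2, 3303 without the filter, 3305 with RLE size factors, 2897 with all 30 libraries, 3439 with 1 mean per group and 4001 with library totals. Without replicates 1 and 2 of ethanol-pretreated plants at 3 DAD it was 2554, of which 2288 were among the 3327. Within arms, leaving out single libraries gave 785 to 1663 calls in ethanol-pretreated plants and 1145 to 2365 in water-pretreated plants; without both of those replicates the ethanol count was 281, where the lone library left is assumed to vary like the other groups. The count of arm differences, 3, was 1 with library totals, 166 without the filter, 96 with DESeq2 and 0 to 160 when single libraries were left out (0 without replicate 1 of ethanol-pretreated plants at 3 DAD, with 1266 at an unadjusted p under 0.05; 160 without its replicate 3; 91 without replicate 3 of water-pretreated plants at 5 DAD). The causes were not tested. With the replicate number as a block, the counts were 3265 over both arms, 1528 for ethanol, 2070 for water and 15 for the difference. The labels do not say whether equal numbers pair the samples. Deviations of same-numbered libraries correlated at 0.017 on average (-0.110 to 0.137), and those of other pairs at -0.214 to 0.222. With 3 libraries per group, these values cannot settle whether the samples were paired. Of 182 genes open to naming, 154 were called over both arms and 129 of these in all alternatives; none was called with the opposite sign. Depth limits genes of few counts, such as PRR9, SHP2 and, in ethanol-pretreated plants at 3 DAD, AT4G33355.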

Other observations

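Of 8 phosphate starvation genes 3 rose over both arms (median 0.22): RNS1, a secreted ribonuclease, by 3.32, PAP17, an acid phosphatase, by 0.62 and SPX1, a phosphate sensor, by 0.41. PAP17 was not called without replicate 1 or 3 of water-pretreated plants at 3 DAD or replicate 2 of water-pretreated plants at 5 DAD (highest adjusted p = 0.134), and SPX1 not without replicates 1 and 2 of ethanol-pretreated plants at 3 DAD (adjusted p = 0.106), and neither with all 30 libraries (adjusted p = 0.145 and 0.122). Of 10 heat shock genes 2 rose (median 0.26) and none fell, of 7 proline genes 2 rose (median 0.19) and none fell, and of 10 genes of nitrate uptake and assimilation 1 rose and 4 fell (median -0.09). These counts stand beside 8.54% higher and 9.92% lower among all genes tested.

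In each of the other lists some members were called in each direction, beside 8.54% higher and 9.92% lower among all genes tested. Antioxidant enzymes had 5 of 17 higher and 4 lower, aquaporins 4 of 17 higher and 3 lower, and jasmonate genes 4 of 24 higher and 3 lower. Expansins had 2 of 17 higher and 4 lower, auxin response genes 1 of 14 higher and 2 lower, and genes of low oxygen, iron status and the annotated 40S and 60S proteins had 1 higher and 1 lower each, of 11, 7 and 15 tested. Of 16 genes taken from the text of the study, 2 were higher and 2 lower.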
